A study of Homo sapiens with 3 samples.

Results

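Syndecans and glypicans, the membrane-anchored heparan sulfate proteoglycans, were described in the human cell line MDA-MB-231, which was derived from a triple-negative breast cancer. The 10 genes, 4 syndecans (SDC1 to SDC4) and 6 glypicans (GPC1 to GPC6), were taken by symbol from the 22825 genes of the counted annotation, and the record with the largest total stood for a gene with several. The samples form 1 group of 3 libraries, siCTRL, from cells given 50 nM control siRNA in 2 transfections with 24 h between them and processed 48 h later. Samples with any other siRNA are not analysed here, so these libraries give the levels of the 10 genes in the transfected line and their spread between replicates, and no treatment effect. The labels call the libraries biological replicates without naming separate cultures, so p-values measure only the spread between these samples, which may be technical.

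Both families carry heparan sulfate chains on a core protein at the cell surface, where the chains bind growth factors, morphogens and matrix proteins. Syndecans span the membrane, and their short cytoplasmic tails bind PDZ-domain proteins and link to the actin cytoskeleton. Glypicans are held in the outer leaflet by a glycosylphosphatidylinositol (GPI) anchor and are known as modulators of FGF, Wnt and Hedgehog signalling. In breast tissue SDC1 is known as the syndecan of epithelial cells and SDC2 as one of mesenchymal cells, while SDC4 is widespread and sits in focal adhesions.

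Gene counts summed to 68670363, 84888346 and 54517311 in replicates 1, 2 and 3. The intermediate filament gene VIM stood at 5936 ± 207 TPM (a level scaled by transcript length and library total; mean ± SD, n = 3) and the epithelial cadherin gene CDH1 at 0.690 ± 0.261 TPM. The oestrogen receptor ESR1 had 3, 3 and 1 counts, the progesterone receptor PGR 23, 30 and 19 counts, and the receptor gene ERBB2 stood at 32.8 ± 1.87 TPM. Of 7 markers of leukocytes, endothelium and fibroblasts only PECAM1, at 1.21 ± 0.204 TPM, reached 1 CPM (a count scaled by library size alone) in every library. The leukocyte marker PTPRC was at 0.585 ± 0.246 TPM and the fibroblast marker LUM at 0.192 ± 0.109 TPM, DCN had no counts, and the 7 summed to between 1.72 and 2.54 TPM.

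The letters before the transcription start are shown for the highest member of each family, SDC4 and GPC1, and for a pair of glypicans with no or few counts, GPC4 and GPC5. Each line holds the 250 bases before the RefSeq start in GRCh38.p14, written 5′ to 3′ on the gene's strand. Capitals mark the GC box letters GGGCGG, searched on both strands, so that CCGCCC is also marked and matches may overlap. The windows are chr20:45348425-45348674 (minus strand) for SDC4, chr2:240435413-240435662 (plus strand) for GPC1, chrX:133415490-133415739 (minus strand) for GPC4 and chr13:91398371-91398620 (plus strand) for GPC5. The counts were made on another build, hg19.
SDC4: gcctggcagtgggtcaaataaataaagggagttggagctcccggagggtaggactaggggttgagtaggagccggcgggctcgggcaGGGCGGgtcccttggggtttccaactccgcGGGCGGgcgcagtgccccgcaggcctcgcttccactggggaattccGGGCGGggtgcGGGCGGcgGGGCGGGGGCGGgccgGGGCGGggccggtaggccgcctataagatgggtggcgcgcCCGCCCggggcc
GPC1: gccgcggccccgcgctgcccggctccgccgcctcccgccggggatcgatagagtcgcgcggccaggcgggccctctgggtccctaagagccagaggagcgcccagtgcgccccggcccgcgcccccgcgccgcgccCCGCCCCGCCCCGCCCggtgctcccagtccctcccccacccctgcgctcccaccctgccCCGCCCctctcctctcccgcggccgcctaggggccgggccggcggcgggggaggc
GPC4: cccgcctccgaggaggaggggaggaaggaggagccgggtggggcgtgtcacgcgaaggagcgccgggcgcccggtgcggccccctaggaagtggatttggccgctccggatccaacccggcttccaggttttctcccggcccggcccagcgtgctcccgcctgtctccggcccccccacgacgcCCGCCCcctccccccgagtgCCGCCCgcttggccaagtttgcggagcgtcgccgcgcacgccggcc
GPC5: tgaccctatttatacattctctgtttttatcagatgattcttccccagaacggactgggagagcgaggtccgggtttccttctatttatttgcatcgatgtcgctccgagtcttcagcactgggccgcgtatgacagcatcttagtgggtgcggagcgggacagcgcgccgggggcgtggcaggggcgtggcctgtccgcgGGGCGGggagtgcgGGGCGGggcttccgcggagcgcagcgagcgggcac

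RefSeq windows matched 8 of the 10 genes, SDC1 with 2 starts. The SDC4 window held 8 GC box matches and 26 CpG dinucleotides, and the GPC1 window 4 matches and 36 CpG. The GPC4 window held 2 matches and 32 CpG, more CpG than that of SDC4, with no GPC4 read counted, and the GPC5 window 2 matches and 25 CpG. SDC3 had 5 matches and 37 CpG, GPC2 had 3 matches and 19 CpG, and each SDC1 window had 1 match, with 21 and 23 CpG. The GPC6 window had no match and 6 CpG. Of its 250 bases 195 lie in exons of GENCODE 29, as do 119 of the SDC1 window with 21 CpG and 69 of that of GPC2, and 14 or fewer in each of the others. Among all 35116 windows of this length 42.6% held a GC box match and the median CpG number was 11. The letters TATAAA, on either strand, were found for GPC5 and GPC6 alone among the 8 genes, and in 10.7% of all windows.

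All 4 syndecans were transcribed well above the median gene, whereas the glypicans were split, with GPC1 at the level of the syndecans, GPC6 low and the other 4 near or at 0. Of the 10 genes, 6 reached 1 CPM in every library (SDC1 to SDC4, GPC1 and GPC6), where 55.6% of all genes did, and GPC3 and GPC4 had no counts. In median log2(TPM + 1), a level, the syndecans stood at 5.56 and the glypicans at 0.54, against 3.48 for all genes with a count. The difference between the families was 5.02 ± 0.13 on this scale (SD over 3 libraries, a description with no test), and 1.27 among the genes at 1 CPM or more in some library, which leaves GPC1 and GPC6 of the glypicans. In bulk RNA the number of cells that carry a transcript and the RNA per cell cannot be told apart.

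SDC4, which senses matrix together with integrins, was the most abundant member by count. Its level was 192, 189 and 204 TPM in replicates 1, 2 and 3 (195 ± 7.99 TPM, SD, n = 3), above 94.9% of genes with a count. Replicate 3 was the highest, and every library lay above every library of the next gene. SDC4 exceeded GPC1 by 3.76-fold and held 51.7% ± 2.13 of the summed TPM of the 10 genes.

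SDC3, a syndecan best known from the nervous system, stood at 51.8, 50.7 and 49.7 TPM in replicates 1, 2 and 3 (50.7 ± 1.04 TPM). Its place depends on the length assumed for the transcript, 6392 bases here. The counted record is matched to a shorter GENCODE transcript of 1580 bases, which leaves out the long 3′ end. That length gave SDC3 184 ± 3.87 TPM, with SDC4 then at 175 ± 7.16 TPM and the ranges of the 2 genes overlapping. Per library size alone, without length, SDC3 was at 122, 120 and 115 CPM and SDC4 at 185, 183 and 194 CPM, so SDC4 had more reads in each library.

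SDC1, known as CD138 on plasma cells, was at 43.7, 44.0 and 39.4 TPM (42.3 ± 2.57 TPM). Replicates 1 and 2 were close and replicate 3 was the lowest. Its 2 records, NM_002997 and NM_001006946, held 3599 and 3618 counts in replicate 1, which does not separate the transcripts. SDC2 was the lowest syndecan and the one with the closest values in these libraries, at 30.2, 30.2 and 31.1 TPM (30.5 ± 0.556 TPM). The ranges of SDC3, SDC1 and SDC2 did not overlap between neighbours, and each library gave them in this order. When all records of a gene were added up, SDC1 came before SDC3, at 45.3 ± 2.80 and 27.2 ± 0.576 TPM, with GPC1 at 27.9 ± 2.82, SDC2 at 16.4 ± 0.284 and SDC4 at 105 ± 4.19 TPM. SDC1 has 2 records with nearly equal counts, and the other syndecans have 1 each. In such sums a read shared by records of a gene can be counted more than once. The record total of replicate 1 was 136743528, against 68670363 for genes, and genes with 1 record fall on this scale. The order from summed records is therefore no evidence on these genes.

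Among the glypicans only GPC1, a broadly expressed member that binds FGF2, matched the syndecans in level. It stood at 55.4, 54.4 and 45.9 TPM in replicates 1, 2 and 3 (51.9 ± 5.22 TPM), with replicate 3 clear of the other two. Its range overlapped that of SDC3, and GPC1 was the higher in 2 of 3 libraries, so with these lengths their order is undecided. With matched lengths SDC3, at 184 ± 3.87 TPM, was above GPC1, at 46.6 ± 4.69 TPM, and in CPM SDC3 was the higher in every library. GPC1 lay 1.23-fold above SDC1 when the matched transcript lengths were used.

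GPC6 was the only other glypican past 1 CPM in every library, at 5.88, 6.37 and 6.66 TPM (6.30 ± 0.397 TPM), below the median gene and 4.84-fold below SDC2. Over 476 bases its exons in GENCODE share positions with another gene on the opposite strand, and the strand setting of the counting is not given in the sources used here, so reads of the pair cannot be told apart. GPC5, which lies on chromosome 13 like GPC6, had 40, 65 and 21 counts, or 0.537, 0.699 and 0.357 TPM. GPC2, known from neural development and neuroblastoma, had 44, 29 and 8 counts, or 0.690, 0.364 and 0.159 TPM. The ranges of GPC5 and GPC2 overlapped, and both lay far below GPC6, which exceeded GPC5 by 11.9-fold.

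GPC3, an oncofetal antigen of liver cancer, and GPC4, both on chromosome X, had 0 counts in each library. All 4 records of GPC3 were at 0. At the depth of replicates 1, 2 and 3 a count of 0 allows up to 0.0877, 0.0708 and 0.110 CPM, which is 6 counts, or 3 pairs if each mate is a count, a limit that covers counting error only. GPC2 in replicate 3, at 0.146 CPM, was near this limit.

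**Figure D1:**
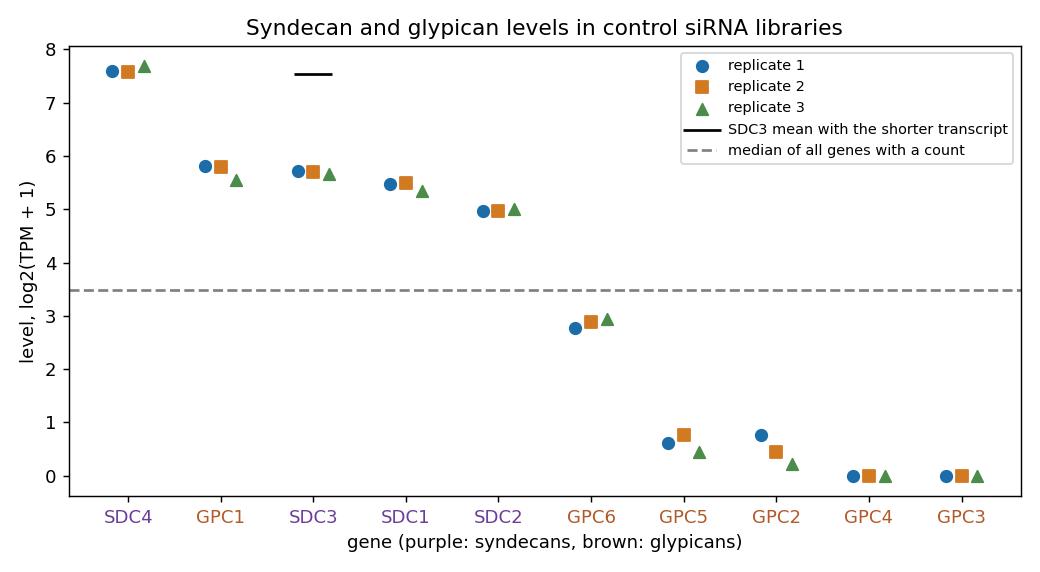
Level of each of the 10 genes, as log2(TPM + 1), in the 3 control siRNA libraries (points, 1 per library), ordered by mean. The dashed line is the median of all genes with a count at 3.48, and the black bar is the mean of SDC3 with the 1580-base transcript; the 4 syndecans and GPC1 lie above the line and the other 5 glypicans below it.

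The syndecans together held 84.4% ± 1.38 of the summed TPM of the 10 genes, and the glypicans 15.6% ± 1.38. The sum was 380, 376 and 377 TPM in replicates 1, 2 and 3. GPC1 made up 13.7% ± 1.36, SDC3 13.4% ± 0.236, SDC1 11.2% ± 0.679 and SDC2 8.07% ± 0.162, with GPC6 at 1.67% ± 0.112 and the rest under it. With the matched transcript lengths SDC3 held 38.5% ± 0.483 and SDC4 36.7% ± 1.69, but the match of SDC3 leaves out its long 3′ end. In CPM, without length, SDC4 held 38.5% ± 1.85 and SDC3 24.5% ± 0.280. SDC3 thus came first only with its shorter transcript. The genes nearest to SDC4 in level, by the largest difference in log2(TPM + 1) over the 3 libraries, were HMGN4 (0.03), SERBP1 (0.03) and FAM3C (0.04). Those nearest to GPC1 were MRPL43 (0.04), PKMYT1 (0.05) and MAD1L1 (0.06).

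The replicates were close for most of these genes, and where they differed replicate 3 was usually the one apart. The coefficient of variation of the CPM was 0.857% for SDC2, 2.91% for SDC3, 2.97% for SDC4, 5.78% for GPC6, 7.12% for SDC1 and 11.0% for GPC1, against a median of 5.60% over 14469 tested genes. The rare GPC5 and GPC2 had 33.2% and 66.4%, where counting of pairs alone would give 21.8% and 27.2%. For SDC2 it would give 2.62%, so its 0.857% lies below counting error and does not make it a steadier gene. GPC3 and GPC4 did not pass the filter on low counts, which left 8 members tested. Replicate 3 was the lowest of the libraries for 5 of the 8 (GPC1, SDC1, SDC3, GPC5 and GPC2), and for 38.0% of all tested genes. It lay below the mean of the libraries for the same 5, and for 49.4% of all tested genes.

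Variation between the libraries beyond counting noise was tested in edgeR by the deviance from 1 common level, with p-values adjusted by Benjamini-Hochberg over all tested genes. No other spread was allowed for, so genes with more counts pass at smaller differences. Of the 8 members 6 varied at an adjusted p under 0.05, where 52.9% of all tested genes did. The counts have the pattern of both mates counted, and with each pair counted once 4 members varied (GPC1, SDC1, GPC2 and SDC4), where 28.5% of all tested genes did. GPC1 had the smallest edgeR adjusted p, 5.42e-22 as deposited and 1.41e-10 with each pair counted once, with 75.7, 74.9 and 61.8 CPM in replicates 1, 2 and 3. For SDC1, at 52.9, 53.7 and 47.0 CPM, the edgeR adjusted p was 6.77e-07 and 0.00215 in the same order. SDC4 (0.0254) and GPC2 (0.0229) passed by less with each pair counted once, and SDC3 (0.128), GPC5 (0.245), GPC6 (0.346) and SDC2 (0.946) did not pass. SDC4 passed at a coefficient of variation of 2.97%, below the median of 5.60%, whereas GPC6, at 5.78% on fewer counts, did not. Without replicate 3 only GPC2 passed as deposited (adjusted p = 0.0343), where 24.2% of all tested genes did, and GPC1 (0.729), SDC1 (0.691), SDC4 (0.654), SDC3 (0.602) and GPC5 (0.341) did not. Without replicate 1, where 37.8% of all tested genes passed, 5 members did and GPC2 did not (0.0568). Without replicate 2, where 39.2% passed, 4 of 7 members did, GPC5 did not (0.2) and GPC2 was not tested. A coefficient of variation of 0.05 between libraries was also allowed for, on the counts as deposited. GPC2 alone then passed (edgeR adjusted p = 0.0116), on 44, 29 and 8 counts, with 1.15% of all tested genes. The common coefficient of variation of these libraries, estimated in edgeR on the counts as deposited, was 0.0544, close to that allowed. Counting of both mates and the trend with GC content can add to it. With an allowance near the spread of the same libraries, few genes can pass. The allowance was not run with each pair counted once.

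**Figure D2:**
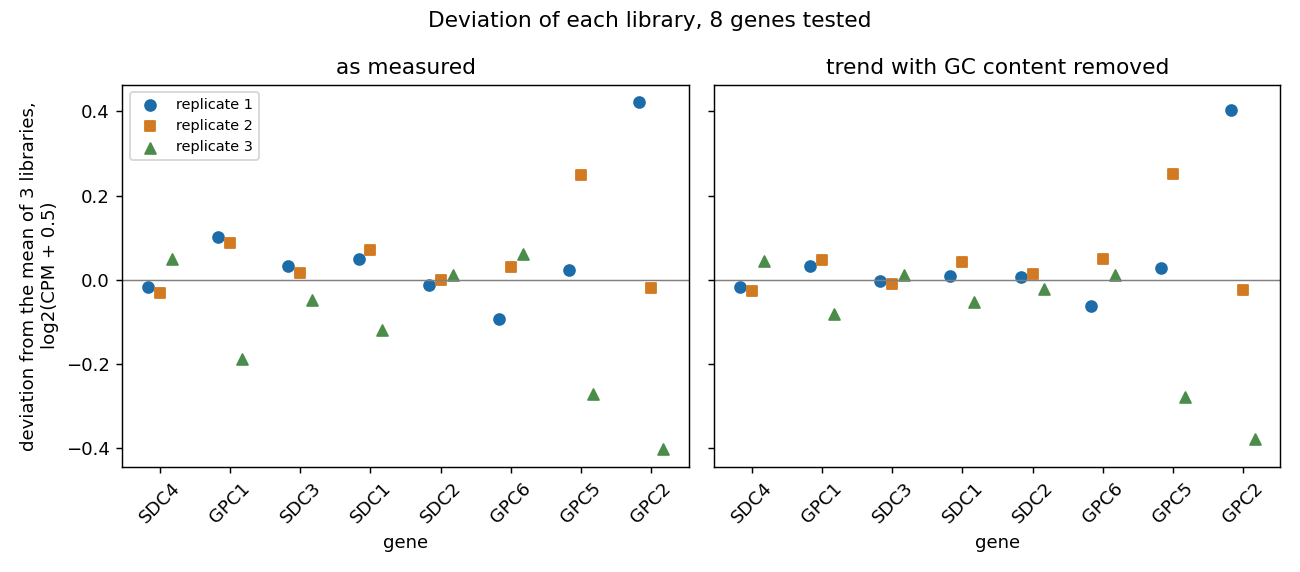
Deviation of each library from the mean of the 3 in log2(CPM + 0.5), for the 8 tested genes, as measured (left) and after the trend with GC content was removed (right); points are single libraries. Replicate 3 lies at -0.19 for GPC1 on the left and at -0.08 on the right, while GPC2 and GPC5, each on fewer than 66 counts a library, change little.

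Base composition moved with the deviation of replicate 3. Across 14345 tested genes, which are not independent replicates, the Spearman correlation of a library's deviation with transcript GC content was 0.42, 0.26 and -0.54 in replicates 1, 2 and 3. GPC1 is GC-rich at 66.7% and deviated by -0.19 in replicate 3, where 494 genes within 2 percentage points of its GC content had a median of -0.10. SDC1, at 60.1% GC, deviated by -0.12 against a median of -0.06 for 1666 such genes. SDC4, at 48.8% GC, deviated by 0.05 against 0.00 for 1907 genes, and SDC2, at 43.9%, by 0.01 against 0.03 for 2337 genes. With the GC trend removed, SDC1 (edgeR adjusted p = 0.0622) and SDC3 (0.718) no longer passed, and 4 members (SDC4, GPC1, GPC5 and GPC2) did, where 39.3% of all tested genes did. With each pair also counted once GPC1 alone passed, at an edgeR adjusted p of 0.0489, where 14.6% of all tested genes did.

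**Figure D3:**
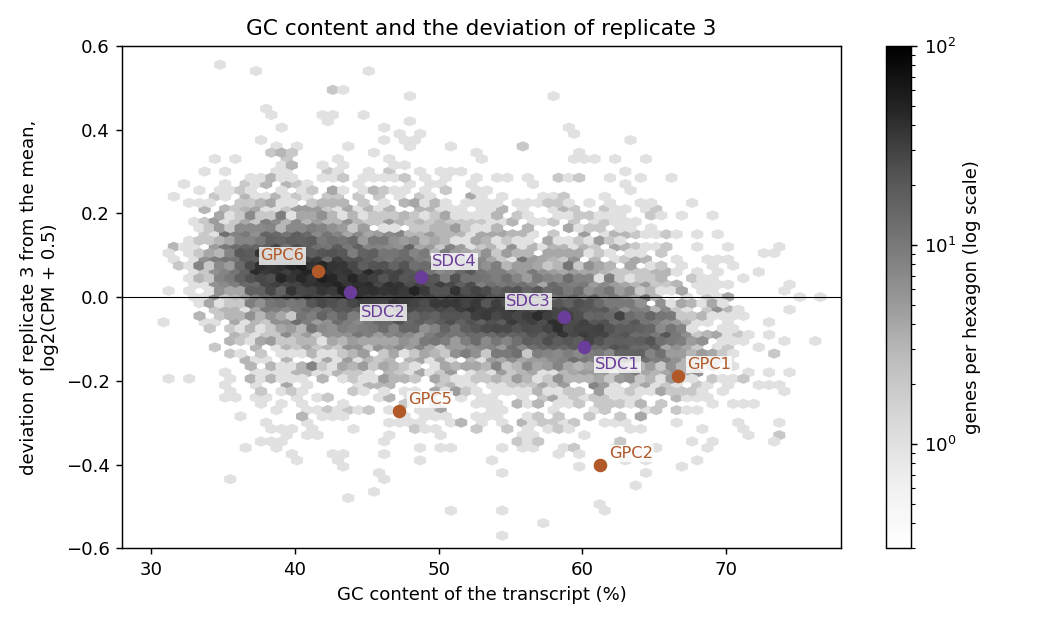
GC content of the transcript against the deviation of replicate 3 from the mean of the 3 libraries, log2(CPM + 0.5), for all tested genes (grey hexagons, darker for more genes, points outside the frame not drawn) and the 8 tested members (purple syndecans, brown glypicans). Deviations fall with GC content, and GPC1 at 66.7% GC lies at -0.19.

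Of 81 genes in 12 lists around the pathway, 61 reached 1 CPM in every library, where 55.6% of all genes did, and 7 had no counts. The same 55.6% is the share to set beside the count past 1 CPM in each list below. The lists are short, and their counts were not tested against it. For the lists, levels are means ± SD of TPM over the 3 libraries, and the SD does not cover the transcript length assumed. With the transcript matched to the counted record, VEGFA was at 372 TPM against 151, SDCBP at 254 against 171 and CASK at 61.0 against 32.6. PIGU fell to 59.6 TPM from 86.9.

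Of 7 genes listed as other heparan sulfate core proteins all reached 1 CPM. Which chains these proteins carry in this line was not measured. The serglycin gene SRGN was at 411 ± 15.5 TPM. The part-time proteoglycans NRP1, a VEGF and semaphorin co-receptor, and CD44, the hyaluronan receptor, were at 209 ± 4.72 and 193 ± 3.77 TPM. In RNA level SRGN thus lay above SDC4, and NRP1 and CD44 were close to SDC4. The basement membrane proteoglycans AGRN and HSPG2 were at 135 ± 7.53 and 51.4 ± 3.38 TPM, and TGFBR3, or betaglycan, was lowest at 14.5 ± 1.35 TPM.

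The linker enzymes, which start the chain on a serine of the core protein, reached 1 CPM for 6 of 7 genes. The xylose kinase FAM20B was at 54.2 ± 2.20 TPM, the glucuronyltransferase B3GAT3 at 36.3 ± 4.35 TPM and B4GALT7 at 28.1 ± 2.09 TPM. Of the xylosyltransferases that begin the linker, XYLT2 stood at 21.0 ± 0.523 TPM and XYLT1 had no counts. The chain polymerase subunits EXT2 and EXT1 were at 111 ± 1.68 and 90.0 ± 2.46 TPM, EXTL3, which adds the first chain sugar, was at 30.7 ± 0.843 TPM, and EXTL1 was lowest with 10, 12 and 2 counts.

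Each step of chain modification had at least 1 gene past 1 CPM. Of 16 sulfotransferase and epimerase genes 8 reached 1 CPM, where 55.6% of all genes did. The N-deacetylase/N-sulfotransferase NDST1 was highest at 55.2 ± 3.02 TPM, HS6ST1 was at 29.5 ± 1.48 TPM, HS2ST1 at 25.2 ± 1.48 TPM and the epimerase GLCE at 22.5 ± 1.88 TPM, while NDST4, HS3ST4 and HS3ST6 had no counts. All 5 genes of precursor supply were past 1 CPM. Among them the PAPS transporter SLC35B2 led at 153 ± 5.08 TPM, followed by the UDP-glucose dehydrogenase UGDH at 61.0 ± 1.96 TPM and PAPSS1 at 54.2 ± 1.38 TPM, and the sulfate transporter SLC26A2 was lowest at 13.1 ± 0.392 TPM. All 6 genes for chondroitin sulfate, the chain that can be built on the same linker, were past 1 CPM, led by CHST11 at 61.8 ± 2.77 TPM, CHPF at 42.1 ± 3.59 TPM and CSGALNACT2 at 29.6 ± 2.05 TPM, with CSGALNACT1 lowest at 2.61 ± 0.169 TPM.

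Genes that edit the chains outside the cell were near 0 apart from heparanase. HPSE, which cuts heparan sulfate, was at 13.7 ± 0.260 TPM, whereas the 6-O-endosulfatases SULF2 and SULF1 had 6, 7 and 4 counts and 0, 3 and 0 counts, and HPSE2 had none. Among 8 genes listed for core protein processing and shedding, MMP14 was highest at 488 ± 14.9 TPM. It is a membrane matrix metalloproteinase that can shed syndecan ectodomains. The sheddases ADAM10 and ADAM17 were at 61.4 ± 4.06 and 40.5 ± 0.607 TPM, and FURIN, a convertase that cleaves glypicans, was at 35.0 ± 1.10 TPM. MMP7 had no counts, and NOTUM had 0, 2 and 2.

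All 6 genes for proteins that bind syndecan tails or act with such binders were past 1 CPM. The PDZ proteins GIPC1 and SDCBP, or syntenin, were at 301 ± 18.5 and 171 ± 10.6 TPM, ARF6, a GTPase in syndecan recycling, was at 166 ± 4.35 TPM, and CASK was lowest at 32.6 ± 1.39 TPM. The 5 genes of the GPI transamidase, which attaches the anchor that glypicans need, were all past 1 CPM, with PIGT at 316 ± 7.18, GPAA1 at 108 ± 5.36, PIGU at 86.9 ± 1.73 and PIGK lowest at 40.7 ± 4.85 TPM. Of 8 ligands that bind heparan sulfate, 6 reached 1 CPM. VEGFA was at 151 ± 3.01 TPM, midkine (MDK) at 89.3 ± 5.08 TPM and HBEGF at 53.9 ± 2.75 TPM, while HGF had no counts. Of the FGF receptors FGFR1 stood at 99.8 ± 2.25 TPM, FGFR4 at 1.40 ± 0.152 TPM and FGFR3 at 0.711 ± 0.0811 TPM, and FGFR2 had 0, 4 and 0 counts.

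**Figure D4:**
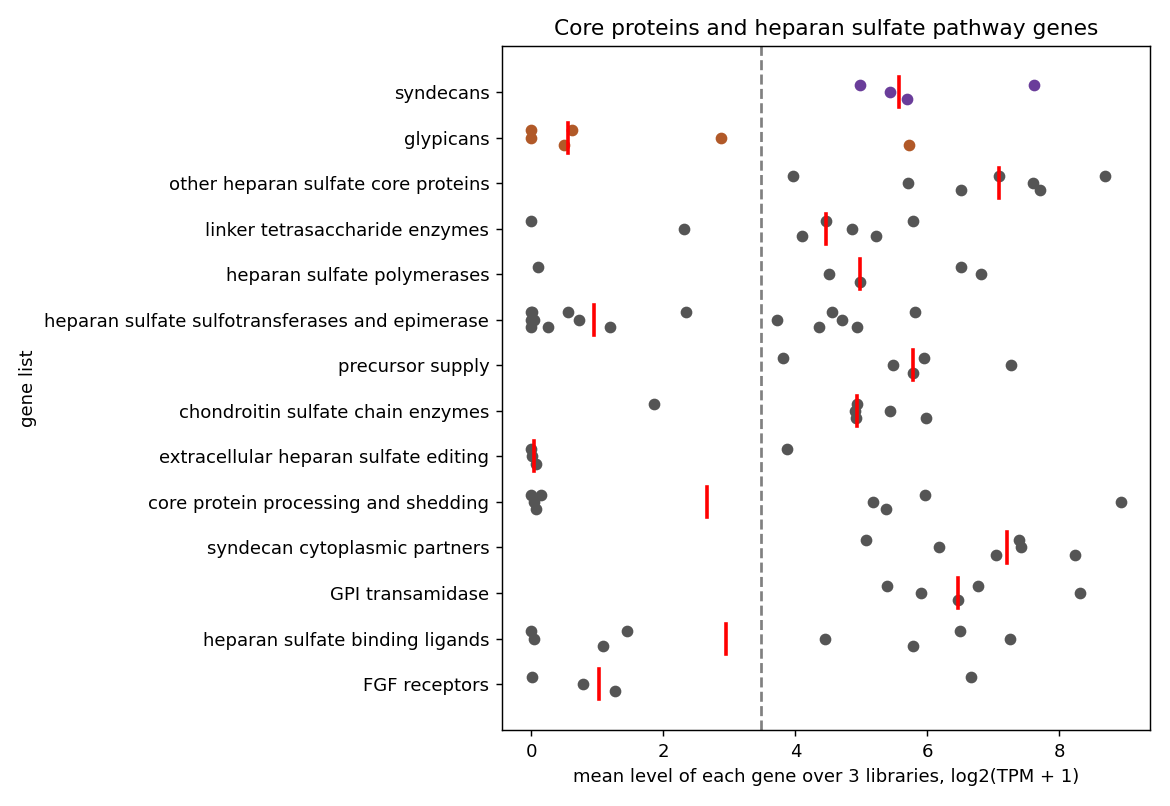
Mean level over the 3 libraries, log2(TPM + 1), of each gene (points, shifted vertically within a list to part them) in the syndecans, the glypicans and 12 lists of the heparan sulfate pathway; the red bar is the list's median and the dashed line the median of all genes with a count. Syndecans lie above the dashed line, and 5 of 6 glypicans and most extracellular editing genes below it. The medians of the sulfotransferase and epimerase, processing and shedding, ligand and FGF receptor lists are also below it.

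Of the 81 pathway genes 64 were tested, and with each pair counted once 28 varied between the libraries (edgeR adjusted p under 0.05), where 28.5% of all tested genes did. They were 6 core proteins (AGRN, HSPG2, COL18A1, SRGN, TGFBR3 and CD44), the linker genes FAM20B and B3GAT3, EXT1, the modifying enzymes NDST1, HS6ST1, HS2ST1 and GLCE, and SLC35B2. Beside these stood the chondroitin sulfate genes CHST11, CHPF, CSGALNACT2 and CHSY1, the proteases MMP14 and ADAM10, the tail partners GIPC1, SDCBP and PDCD6IP, the anchor genes PIGT, GPAA1 and PIGK, MDK and FGFR1. With the GC trend also removed 16 varied, where 14.6% of all tested genes did. As for the members, genes with more counts pass this test at smaller differences. Among the markers of other cells PTPRC varied, on 52, 87 and 92 counts in replicates 1, 2 and 3, or 0.760, 1.03 and 1.68 CPM (edgeR adjusted p = 0.0153 with each pair counted once, and 0.0633 with the GC trend also removed). Of the line's markers VIM, CDH1 and ERBB2 varied with each pair counted once (edgeR adjusted p = 8.38e-121, 0.0172 and 0.00455). With the GC trend also removed the values were 1.08e-62, 0.03 and 0.424. CDH1 was at 1.75, 1.14 and 0.821 CPM in replicates 1, 2 and 3. The part of these markers in the differences between the libraries was not tested.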

How the data were processed

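RNA was measured in 3 siCTRL libraries of MDA-MB-231, read as pairs of 100 bp per the labels' protocols. As deposited by the authors, the values are whole-number counts for each RefSeq record, not normalized. The submitters' processing notes name FastQC, TopHat2, Cufflinks and hg19; versions, the counting tool and strand setting are not given in the sources used here. Of 6937 records without a gene name 619 could not be matched by accession and were left out (0.952%, 0.959% and 0.944% of the record totals in replicates 1, 2 and 3). Copies of a record were summed, and the record with the largest total over the libraries stood for its gene. In replicate 1, 485 genes had 1 count and 712 had 2, as arises where each mate adds a count. As each pair counted once, the deviance was divided by 2, which approximates a recount.

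TPM used the longest protein-coding GENCODE 29 basic transcript of each gene, or where there was none the longest basic, then any, transcript. A length was found for 98.9% of genes with a count, and lengths under 200 bases were left out. This choice departs from the transcript matched to the counted record because that of SDC3 is 1580 bases and leaves out its long 3′ end. For VIM and PIGU the matched transcript was the longer, at 2135 against 1868 and 1632 against 1248 bases. With it VIM was at 4660 TPM. CPM used TMM library sizes. Variation was tested with edgeR 4.0.16 in R 4.3.3 after filterByExpr, with dispersion 0 and deviance against a chi-square; the GC trend was a lowess curve per library (span 0.2). Size factors came also from DESeq2 1.42.0. Python 3.11.15 with pandas 2.3.3, scipy 1.17.1 and matplotlib 3.10.9 served for the rest.

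The members and lists were chosen with earlier results of these data known. Named genes are the 10 members, the line's markers (1 is not reported here), the 3 highest, the lowest and the varying genes of each list, and the 3 genes nearest in level to the highest syndecan and glypican; FURIN, NOTUM and further genes at 0 counts stand outside this rule and were chosen with their values known. The file gives PXYLP1 as ACPL2. Alternatives covered normalization, filters, pseudocount, length, records and each library left out.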

Additional observations from a re-analysis of the deposited data

How the results depend on the processing

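No paired analysis was possible because the samples form 1 group. The count of genes varying between replicates, 7653 of 14469, became 4117 with each pair counted once, 2099 with the GC trend also removed, 166 with a coefficient of variation of 0.05 allowed, and 3571 to 5663 with 1 library left out, lowest without replicate 3. For the members, 6 of 8 as deposited, it was 1 with that coefficient allowed, 1 with pairs counted once and the GC trend removed, and 1 to 5 with 1 library left out; the 1 left without replicate 3 was GPC2. DESeq2 size factors and no filter on low counts left 6.

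The median member level minus that of all genes, 0.45 on the log2(TPM + 1) scale, was 1.14 in CPM, 0.083 with counts summed over records, 0.97 among genes at 1 CPM in some library, 0.33 with matched lengths and -0.022 as a mean over members, where GPC3 and GPC4 enter at 0. The syndecan minus glypican level, 5.02, was 5.76 in CPM, 4.86 summed over records, 1.27 among genes at 1 CPM in some library, where only GPC1 and GPC6 remained of the glypicans, 5.87 with matched lengths, 4.32 as a mean and 6.45 with a pseudocount of 0.1. The syndecan share, 84.4%, was 82.2% in CPM, 85.9% summed over records and 88.9% with matched lengths. In the sums over records a read shared by records of a gene can be counted more than once. The 61 pathway genes past 1 CPM were 61 to 63 under every alternative run. Matched lengths, the combination of pairs counted once with GC removal, and the pathway alternatives were chosen after seeing the data. Levels of GPC2, GPC3, GPC4 and GPC5 are limited by depth.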
